A study of Mus musculus with 12 samples.

Results

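Carfilzomib was added to doxorubicin in NIH/3T3 cells, an immortalised line of mouse embryonic fibroblasts with a wild-type genotype per the labels, and polyadenylated RNA was sequenced after 8 h. The comparison holds 6 of the 12 libraries of the study, chosen by their labelled treatment: 3 with 200 nM carfilzomib and 5 µM doxorubicin together (CFZ-DOX) and 3 with 5 µM doxorubicin alone (DOX). All 6 were exposed to doxorubicin, so the contrast is the effect of carfilzomib in cells that also received that drug. The other 6 libraries, 3 with 200 nM carfilzomib (CFZ) and 3 with vehicle (DMSO), enter only where that effect is set beside the one without doxorubicin. The labels number the replicates 1 to 3 and do not say that they were separate cultures, so p-values measure the spread between these libraries, which may be technical.

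Carfilzomib is a peptide epoxyketone that binds the chymotrypsin-like site of the proteasome and blocks it irreversibly. Cells with a blocked proteasome accumulate ubiquitinated proteins, and they are known to answer with the heat shock genes driven by HSF1, with new proteasome subunits driven by NRF1 (gene Nfe2l1), with NRF2 targets and with the integrated stress response. Doxorubicin intercalates into DNA, traps topoisomerase II on it, evicts histones and impairs transcription, and it activates p53.

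The libraries held 38327183, 29044227 and 28278879 counts with CFZ-DOX, and 42033993, 32853854 and 32351317 with DOX. Levels are given as CPM, read counts scaled to a common library size with TMM. A count of 0 in the smallest library allows up to 0.106 CPM before TMM scaling, which covers counting error only. Of the 10 fibroblast markers all were tested, and together they made up 37500 to 88000 CPM with CFZ-DOX and 25800 to 57200 CPM with DOX. Of the 7 epithelial markers 1 passed the filter on low counts (their sum was 0.687 to 1.23 CPM with CFZ-DOX and 1.26 to 1.92 with DOX), of the 6 endothelial ones 4 passed (3.43 to 4.05 CPM with CFZ-DOX and 3.62 to 4.13 with DOX), and of the 6 macrophage ones 3 passed (19.9 to 33.9 CPM with CFZ-DOX and 9.16 to 16.1 with DOX), most of it Lyz2 and Cd68. Fewer cells and less RNA per cell cannot be told apart in such data. Principal component 1 of the log levels separated CFZ-DOX from DOX with 44.9% of the variance. Component 2, with 33.2%, set both libraries numbered 3 (52.7 with CFZ-DOX and 35.6 with DOX) apart from the other four (−35.5 to −7.4). The genes of cytosolic ribosomal proteins made up 10.6 ± 0.306% of counts with CFZ-DOX and 7.22 ± 0.303% with DOX (SD, n = 3).

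Adding carfilzomib raised the polyubiquitin gene Ubb and the cytosolic HSP70 genes Hspa8, Hspa1b and Hspa1a by 10.1-fold to 12.2-fold and lowered 7 of 32 genes of mitosis, both topoisomerase II genes, Calm2 (calmodulin), Actg1 (gamma actin) and Rab1a. Of 15910 genes tested, 461 were higher with CFZ-DOX (2.9%) and 657 lower (4.13%). The threshold was a Benjamini-Hochberg adjusted p under 0.05 in the quasi-likelihood F test of edgeR. A change of 2-fold or more was seen in 365 of the higher and 390 of the lower genes. The groups did not overlap for any of these genes. Among all genes tested, the CFZ-DOX libraries lay wholly above the DOX libraries for 2498 (15.7%) and wholly below for 2580 (16.2%). Same-numbered libraries moved together within their groups. With the replicate number as a block, 3805 genes were higher (23.9%) and 4109 lower (25.8%), 784 and 698 of them by at least 2-fold, and these held 459 of the 461 and all 657 of the calls made without the block. A gene is said below to be called when it passed without the block, and every call that rests on the block is named as such.

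The calls made without the block depended on single libraries. They came to 18 higher and 22 lower without DOX 2, 77 and 59 without CFZ-DOX 2, 94 and 194 without DOX 1, 254 and 242 without CFZ-DOX 1, 318 and 536 without DOX 3, and 708 and 1021 without CFZ-DOX 3. Without both libraries numbered 2 they came to 5 higher and 0 lower, and 78 of the 80 named genes with a call lost it. With the block, leaving out 1 replicate number left 2732 to 3515 higher and 3326 to 3708 lower. None of the 461 or 657 genes was called in the other direction in any of these fits. The counts also depend on the scaling: 74 genes were higher and 313 lower under all 5 scalings tried without the block, and 322 and 3092 under the 4 tried with it. Over all genes tested the median log2 ratio was 0.01 with TMM, −0.19 with library size, 0.14 with the upper quartile and −0.75 when the ribosomal protein genes were held level. At that last scaling, without the block, the log2 fold change was 2.62 for Ubb, 2.60 for Hspa8, 2.93 for Hspa1b and 2.72 for Hspa1a. These 4 genes stayed called, as did 54 of the 80 named calls in all. The calls of Ddit3, Hspa2 and Egr1 were lost there (log2 fold change 0.84, 0.65 and 0.51, edgeR adjusted p = 0.164, 0.139 and 0.231).

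Ubb is a polyubiquitin gene, whose transcript is translated into a chain of ubiquitin units that is cut into free ubiquitin. Ubb (GRCm39 chromosome 11, 62441997 to 62444039, plus strand) had 1850, 1490 and 1450 CPM with CFZ-DOX, against 133, 128 and 181 CPM with DOX. The groups were far apart, with a rise of 10.8-fold (log2 fold change 3.44, SE 0.27; edgeR adjusted p = 0.000746; 2.57e-09 with the replicate block), and the call was kept when any 1 library was left out. Without both libraries numbered 2 the edgeR adjusted p was 0.088. In TPM, which corrects for length, Ubb stood at 2550 with CFZ-DOX and 306 with DOX.

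The HSP70 proteins refold or triage damaged proteins, with Hspa8 as the constitutive form and the neighbouring genes Hspa1a and Hspa1b as the classical heat-induced forms. Hspa8 (ENSMUSG00000015656, GRCm39 chromosome 9, 40712280 to 40721383, plus strand) had 2930, 2670 and 2280 CPM with CFZ-DOX, against 337, 248 and 197 CPM with DOX, a rise of 10.1-fold (log2 fold change 3.33, SE 0.30; edgeR adjusted p = 0.00124). Per length it stood at 1630 TPM with CFZ-DOX and 202 TPM with DOX. Within each replicate number the ratio was nearly the same, with log2 values of 3.12, 3.43 and 3.53. Its near-identical processed copies, given at the end, may share its reads.

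Hspa1b (ENSMUSG00000090877, GRCm39 chromosome 17, 35175412 to 35178214, minus strand) had 69.6, 52.1 and 204 CPM with CFZ-DOX, against 10.2, 6.43 and 10.1 CPM with DOX, 12.2-fold higher (log2 fold change 3.61, SE 0.49; edgeR adjusted p = 0.00807; 0.0346 with the replicate block). Hspa1a (ENSMUSG00000091971, GRCm39 chromosome 17, 35188166 to 35191132, minus strand) had 6.71, 4.05 and 22.1 CPM with CFZ-DOX, against 0.886, 0.836 and 1.36 CPM with DOX (log2 fold change 3.41, SE 0.59; edgeR adjusted p = 0.0169). In both genes CFZ-DOX 3 was well above the other CFZ-DOX libraries, and the groups did not overlap. Without DOX 3 the adjusted p was 0.0585 for Hspa1b and 0.0613 for Hspa1a, and for Hspa1a it was 0.0625 without DOX 2. The pair are near-identical copies, so reads may be divided between them by the counting.

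The promoters of 3 called heat shock genes that hold a heat shock element word are shown, because the copies Hspa1b and Hspa1a can be compared letter by letter with each other and with the small heat shock gene Hspb1. The words searched were GAANNTTC and TTCNNGAA, which read the same on both strands, in RefSeq windows of GRCm38.p6 from 250 bases before to 50 after the gene's start. The 250 bases before the start are printed 5′ to 3′ on the gene's strand with the word in capitals, from chr17:34959239-34959488 (minus) for Hspa1b, chr17:34972157-34972406 (minus) for Hspa1a and chr5:135887669-135887918 (plus) for Hspb1.
Hspa1b: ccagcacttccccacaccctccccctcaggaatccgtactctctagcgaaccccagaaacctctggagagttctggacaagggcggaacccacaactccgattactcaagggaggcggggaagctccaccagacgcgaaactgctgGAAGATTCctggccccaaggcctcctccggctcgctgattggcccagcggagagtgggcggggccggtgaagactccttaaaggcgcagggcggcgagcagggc
Hspa1a: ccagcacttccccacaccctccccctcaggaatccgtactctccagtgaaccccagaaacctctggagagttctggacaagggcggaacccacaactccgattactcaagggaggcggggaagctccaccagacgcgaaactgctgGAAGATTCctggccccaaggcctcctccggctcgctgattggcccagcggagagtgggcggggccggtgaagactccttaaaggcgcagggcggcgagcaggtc
Hspb1: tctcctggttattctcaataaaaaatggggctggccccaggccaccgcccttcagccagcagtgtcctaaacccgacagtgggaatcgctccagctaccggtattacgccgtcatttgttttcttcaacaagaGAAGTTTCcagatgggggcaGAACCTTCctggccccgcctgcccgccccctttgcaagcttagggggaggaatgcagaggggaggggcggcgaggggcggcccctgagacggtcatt
The windows of Hspa1b and Hspa1a were identical at 247 of 250 bases, with GAANNTTC starting 104 bases before the start in both. The window of Hspb1 held the word at 117 and at 97 bases before the start. Such a word lay in 42.9% of 21 genes of the HSP70 system with a window, 50% of 10 genes of the HSP90 and small heat shock list and 17.0% of all 27025 genes with a window, but in 10.9% of the 266 called higher, 12.8% of the 476 called lower and 13.9% of the 10614 tested. The window of the called gene Hspa2 and both windows of Ubb held neither word, and Hspa8 was not searched. A match is a description of the letters and not a binding site.

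Across the whole HSP70 system most genes were not called, though the share called higher was above that of all genes. Of 23 tested members 4 were called higher (Hspa1b, Hspa1a, Hspa8 and Hspa2) and 0 lower, against 2.9% and 4.13% of all genes, with a median log2 fold change of 0.27. With the replicate block 11 were higher and 4 lower (Hspa14, Hspa4l, Dnaja2 and Hspa4), against 23.9% and 25.8% of all genes. With the block and ribosomal protein genes held level, a scaling that made 2.02% of all genes higher and 72% lower, they were 4 and 16. Hspa2, an HSP70 best known from testis, had 54.3, 45.1 and 60.8 CPM with CFZ-DOX, against 19.2, 15.5 and 24.6 CPM with DOX (log2 fold change 1.43, SE 0.22; edgeR adjusted p = 0.0119; 0.0542 without DOX 2). The co-chaperone Dnajb1 had 57.4, 55.5 and 114 CPM with CFZ-DOX, against 29.7, 36.6 and 48.2 CPM with DOX, and was called only with the block (adjusted p = 1.32e-08; 0.0718 without it). Bag3, the nucleotide exchange factor that links HSP70 to autophagy, had a log2 fold change of 0.34 (adjusted p = 0.28; 0.0166 with the block).

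Of 14 members of the HSP90 and small heat shock list 1 was called higher and 1 lower, against 2.9% and 4.13% of all genes. With the block 9 were higher and 2 lower, against 23.9% and 25.8% (2 and 11 with ribosomal protein genes also held level). The median log2 fold change was 0.28. Hspb1 had 0.458, 0.849 and 0.596 CPM with CFZ-DOX, against 0.152, 0.259 and 0.0743 CPM with DOX (edgeR adjusted p = 0.041). Even its higher group lay below 1 CPM, and DOX 3 lay near its floor, which is 0.0927 CPM before TMM scaling. The call of Hspb1 was lost without CFZ-DOX 2, DOX 1, DOX 2 or DOX 3 (adjusted p = 0.0737 to 0.131). The lens crystallin chaperone Cryab had 185, 255 and 145 CPM with CFZ-DOX, against 160, 192 and 118 CPM with DOX. Its groups overlapped, and it was called only with the block (log2 fold change 0.31, adjusted p = 0.00323). The HSP90 co-chaperone Ptges3 fell, with 29.7, 37.3 and 37.4 CPM with CFZ-DOX and 68, 105 and 67.9 CPM with DOX (log2 fold change −1.21, SE 0.22; edgeR adjusted p = 0.0185; 0.0638 without CFZ-DOX 2 and 0.0737 without DOX 2). Hsf1, the factor of this response, had a log2 fold change of 0.24 (adjusted p = 0.415; 0.0279 with the block).

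**Figure D1:**
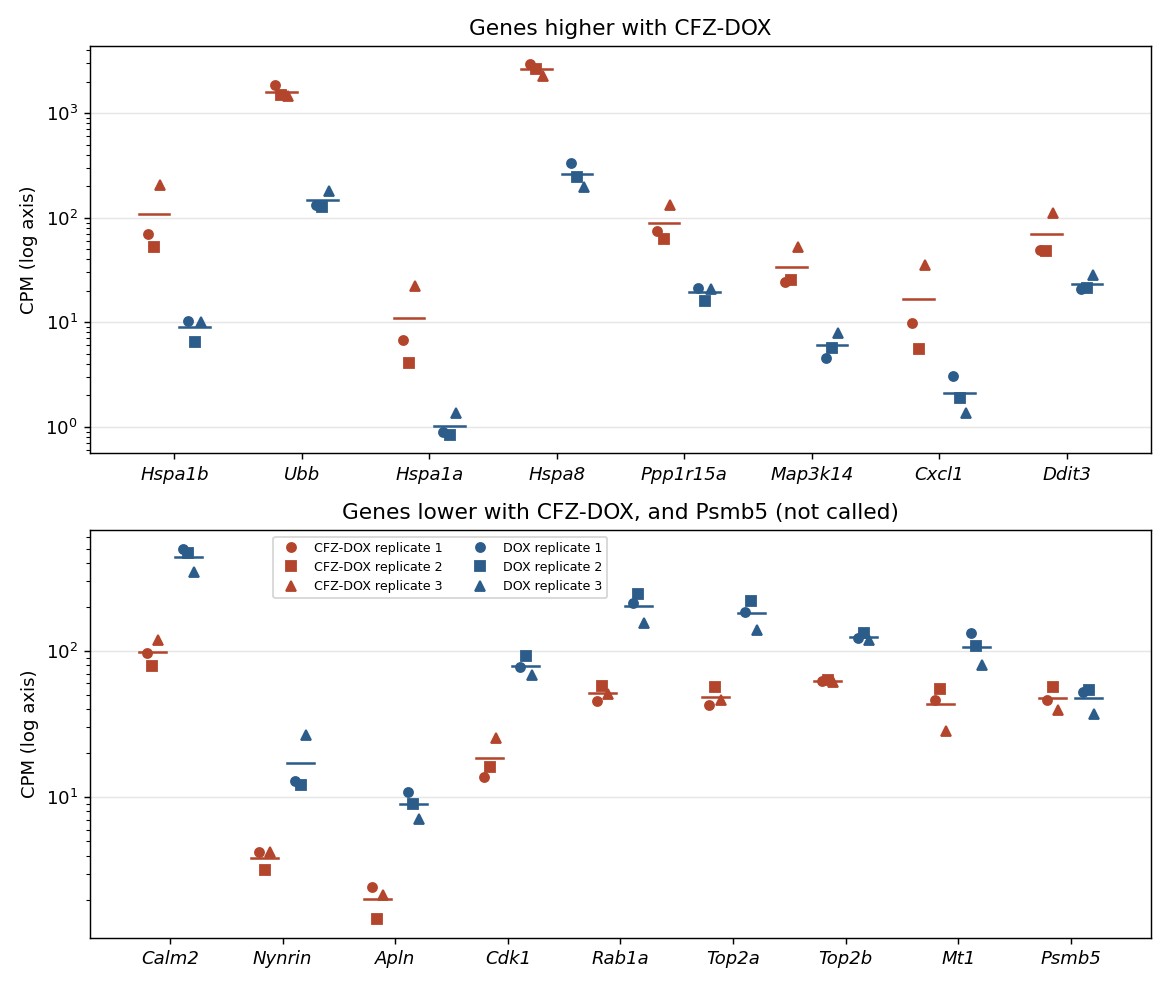
Level of 17 genes in each library in CPM on a log axis, with CFZ-DOX in red left of DOX in blue, 1 symbol per replicate number and a line at the mean of 3 libraries. Ubb, Hspa8, Hspa1b and Hspa1a lie far apart, the lower panel shows the falling genes, and Psmb5 (47.4 CPM with CFZ-DOX and 47.7 with DOX on average) overlaps.

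The subunits of the proteasome, the target of carfilzomib, were not among the calls. Of the 32 subunits of the 20S core and the 19S cap, 0 were called higher and 0 lower by edgeR, against 2.9% and 4.13% of all genes. With the replicate block 10 were higher and 5 lower, against 23.9% and 25.8%, the medians being 0.04 for the core and 0.16 for the cap. With ribosomal protein genes also held level 0 were higher, and 14 of 14 in the core and 15 of 18 in the cap were lower. Psmb5, the subunit whose active site carfilzomib binds, had 45.9, 56.8 and 39.6 CPM with CFZ-DOX, against 52.2, 53.7 and 37.3 CPM with DOX, and the groups overlapped (log2 fold change −0.01, SE 0.21; edgeR adjusted p = 0.982; 0.961 with the block). Psmb6 had 232, 268 and 230 CPM with CFZ-DOX, against 199, 203 and 143 CPM with DOX, and was called only with the block (log2 fold change 0.42, adjusted p = 0.000132).

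Nfe2l1, which encodes NRF1, had 392, 282 and 305 CPM with CFZ-DOX, against 501, 378 and 385 CPM with DOX (log2 fold change −0.37, SE 0.23; edgeR adjusted p = 0.325), and with the block it was lower (adjusted p = 0.000276). The assembly chaperone gene Pomp was higher only with the block (log2 fold change 0.39, adjusted p = 0.000285), and of the 13 activators and assembly chaperones 0 were called either way. The p97 list, which holds the segregase that feeds ubiquitinated proteins to the proteasome and the shuttle factors, had 1 call among 16. It was lower, against 4.13% of all genes. That gene, the shuttle factor Ubqln2, had 16.8, 17.3 and 19.3 CPM with CFZ-DOX, against 40.7, 46.3 and 44.9 CPM with DOX (log2 fold change −1.31, SE 0.18; edgeR adjusted p = 0.00807; 0.052 without DOX 2).

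The immunoproteasome and MHC class I genes were called in neither direction without the block. With it 5 of 9 were higher and 0 lower (B2m, Psmb8, Tapbp, H2-K1 and H2-D1), against 23.9% and 25.8% of all genes. They were 0 and 5 when ribosomal protein genes were also held level. The median log2 fold change of the list was 0.44. H2-D1, a class I heavy chain, had 1330, 981 and 844 CPM with CFZ-DOX, against 756, 599 and 481 CPM with DOX (log2 fold change 0.78, adjusted p = 0.103; 4.05e-10 with the block).

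In the integrated stress response phosphorylated eIF2α slows translation and favours ATF4. Of its 31 tested genes 2 were called higher and 2 lower, against 2.9% and 4.13% of all genes. With the block 11 were higher and 8 lower, against 23.9% and 25.8% (2 and 22 with ribosomal protein genes also held level). The median was 0.12. Ppp1r15a, which encodes GADD34, the phosphatase subunit that ends the response, had 73.9, 62.1 and 132 CPM with CFZ-DOX, against 21.1, 16.1 and 20.6 CPM with DOX, 4.64-fold higher (log2 fold change 2.21, SE 0.29; edgeR adjusted p = 0.00801). Ddit3, which encodes the death-linked factor CHOP, had 49.5, 48.3 and 111 CPM with CFZ-DOX, against 20.8, 21.1 and 28.5 CPM with DOX (log2 fold change 1.57, SE 0.32; edgeR adjusted p = 0.0249; 0.0581 without DOX 1 and 0.0887 without DOX 2). In both genes CFZ-DOX 3 was the highest library and no library of one group entered the range of the other.

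Atf4 had 72.3, 66.6 and 96.9 CPM with CFZ-DOX, against 50.2, 53.7 and 63.8 CPM with DOX, and Atf3 had 15.2, 9.76 and 33.3 CPM with CFZ-DOX, against 8.74, 7.15 and 16.3 CPM with DOX. Both were called only with the block (adjusted p = 5.4e-05 for Atf4 and 4.92e-06 for Atf3), and the groups of Atf3 overlapped. Vldlr, a lipoprotein receptor, had 7.85, 6.09 and 4.36 CPM with CFZ-DOX, against 19.6, 15.3 and 15.9 CPM with DOX (log2 fold change −1.47, SE 0.26; edgeR adjusted p = 0.0177; 0.0618 without CFZ-DOX 2 and 0.0573 without DOX 2). The hormone gene Stc2 was lower too (log2 fold change −0.87, SE 0.19; edgeR adjusted p = 0.0302), a call lost when any library but CFZ-DOX 3 was left out (adjusted p = 0.0524 to 0.111).

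In the unfolded protein response, the answer to misfolding in the endoplasmic reticulum, 2 of 24 genes were called higher, against 2.9% of all genes. These were Derl3 and Syvn1, both of the machinery that returns misfolded proteins to the cytosol for degradation. Syvn1, its ubiquitin ligase, had 37.3, 39.3 and 53 CPM with CFZ-DOX, against 22.3, 26.1 and 26.5 CPM with DOX (log2 fold change 0.79, SE 0.20; edgeR adjusted p = 0.0435), and its call was lost when any 1 of the 6 libraries was left out (adjusted p = 0.0542 to 0.132). That of Derl3 was lost without CFZ-DOX 2, DOX 1, DOX 2 or DOX 3 (adjusted p = 0.0548 to 0.132). Hspa5, the chaperone BiP and the standard marker of the pathway, went the other way, with 1040, 1030 and 695 CPM with CFZ-DOX and 1480, 1310 and 836 CPM with DOX. Its fall was called only with the block (log2 fold change −0.38, edgeR adjusted p = 0.00015, and 0.402 without it). With the block 8 genes of the list were higher and 6 lower, against 23.9% and 25.8% of all genes (0 and 20 with ribosomal protein genes also held level).

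NRF2 targets, the genes of oxidative and electrophile defence, had few calls. With the block 11 of 25 tested were higher and 5 lower, against 23.9% and 25.8% of all genes (0 and 18 with ribosomal protein genes also held level). The median was 0.11. Without the block 0 were called higher and 1 lower, against 2.9% and 4.13%. The lower gene was Srxn1, the sulfiredoxin that repairs peroxiredoxins, with 53.9, 54.7 and 50.7 CPM with CFZ-DOX and 78.3, 84.5 and 78.8 CPM with DOX (log2 fold change −0.60, SE 0.16; edgeR adjusted p = 0.0497), a call that was lost when any 1 of the 6 libraries was left out (adjusted p = 0.0542 to 0.184) and kept with the block. Hmox1, heme oxygenase 1, had 34.1, 25.5 and 55.2 CPM with CFZ-DOX, against 17.7, 21.7 and 34.8 CPM with DOX, with overlapping groups (log2 fold change 0.63, adjusted p = 0.232; 5.54e-05 with the block). The cystine transporter Slc7a11 had 15.9, 18.3 and 20.8 CPM with CFZ-DOX, against 18.3, 20.2 and 16.6 CPM with DOX (log2 fold change 0.00, SE 0.20; edgeR adjusted p = 1; 0.99 with the block), and the autophagy receptor Sqstm1 had overlapping groups too (log2 fold change 0.13, adjusted p = 0.754; 0.162 with the block).

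Of 26 p53 targets 0 were called higher and 0 lower by edgeR, against 2.9% and 4.13% of all genes. With the block 4 were higher and 11 lower, against 23.9% and 25.8% (0 and 25 with ribosomal protein genes also held level). The median was −0.12. The cell cycle inhibitor Cdkn1a had 129, 115 and 181 CPM with CFZ-DOX, against 141, 138 and 138 CPM with DOX (log2 fold change 0.03, SE 0.21; edgeR adjusted p = 0.942; 0.98 with the block), and the p53 ligase Mdm2 was higher only with the block (log2 fold change 0.48, adjusted p = 3.92e-05). The death receptor Fas was lower only with the block (log2 fold change −0.50, adjusted p = 0.002), and Trp53 itself had 112, 139 and 146 CPM with CFZ-DOX, against 129, 143 and 132 CPM with DOX. In the BCL2 family 1 of 13 genes was called, and it was lower, against 4.13% of all genes. It was the BH3-only gene Bmf, with 1.28, 1.27 and 1.32 CPM with CFZ-DOX and 2.58, 2.39 and 5.1 CPM with DOX (log2 fold change −1.38, SE 0.34, edgeR adjusted p = 0.0404, and 0.0535 to 0.115 when any library but CFZ-DOX 3 was left out).

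Both topoisomerase II genes, which encode the protein that doxorubicin traps, fell. Top2a, the isoform of dividing cells, had 42.6, 56.5 and 46.1 CPM with CFZ-DOX, against 184, 219 and 138 CPM with DOX (log2 fold change −1.90, SE 0.23; edgeR adjusted p = 0.00646). Top2b, the isoform that resting cells also use, had 62.4, 63.1 and 61.2 CPM with CFZ-DOX, against 122, 133 and 119 CPM with DOX (log2 fold change −1.0, SE 0.17; edgeR adjusted p = 0.0144; 0.0678 without CFZ-DOX 2 and 0.0737 without DOX 2). The spread within the groups was small for Top2b, with an SD of 0.976 CPM with CFZ-DOX and 7.67 CPM with DOX. Top2a and Top2b were the 2 genes called among 33 of DNA damage signalling and repair, against 4.13% of all genes called lower. With the block 13 of the 33 were lower and 6 higher, against 25.8% and 23.9%.

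The genes of mitosis that were called were all lower. Of 32 tested 0 were called higher and 7 lower, against 4.13% of all genes, and with the block 0 were higher and 22 lower, against 25.8%; the median log2 fold change was −0.47, with 2 ratios above 0. Cdk1, the kinase that starts mitosis, had 13.7, 16.2 and 25.5 CPM with CFZ-DOX, against 77.2, 91.6 and 68.5 CPM with DOX (log2 fold change −2.10, SE 0.25; edgeR adjusted p = 0.00672). Aurkb, the kinase of chromosome attachment, had 13.5, 16.5 and 16.5 CPM with CFZ-DOX, against 39.6, 50.1 and 46.4 CPM with DOX (log2 fold change −1.55, SE 0.19; edgeR adjusted p = 0.00722). Both calls were kept when any 1 library was left out, and lost without both libraries numbered 2 (edgeR adjusted p = 0.128 for Cdk1 and 0.15 for Aurkb). Plk1, the polo kinase, was lower by a log2 fold change of −1.08 (SE 0.28, adjusted p = 0.0478), a call lost when any library but CFZ-DOX 3 was left out (adjusted p = 0.0527 to 0.14) and kept with the block.

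Of 37 genes of DNA replication 0 were called higher and 1 lower, a share below the 4.13% of all genes, and with the block 5 and 16, against 23.9% and 25.8%, with a median of −0.18. The called gene was Pcna, the sliding clamp, with 91.8, 105 and 74 CPM with CFZ-DOX and 188, 197 and 154 CPM with DOX (log2 fold change −0.99, SE 0.21; edgeR adjusted p = 0.0257; 0.0582 to 0.105 without CFZ-DOX 1, CFZ-DOX 2, DOX 1 or DOX 2). Of 35 replication-dependent histone genes that passed the filter, out of 51 listed, none was called. With the block 7 were higher and 1 lower, against 23.9% and 25.8% of all genes (0 and 13 with ribosomal protein genes also held level). Their mature RNAs lack a poly(A) tail, and these libraries were made from polyadenylated RNA.

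Immediate early genes answer signals within minutes and without new protein. Of 26 tested 4 were called higher and 1 lower, against 2.9% and 4.13% of all genes, and with the block 16 and 2, against 23.9% and 25.8%, with a median of 0.57. With the block and ribosomal protein genes held level 5 were higher and 13 lower. At that scaling without the block 0 were higher and 3 lower, against 83 and 6140 of all 15910 genes. Egr1 had 156, 127 and 252 CPM with CFZ-DOX, against 83.4, 68.9 and 77.1 CPM with DOX (log2 fold change 1.22, SE 0.26; edgeR adjusted p = 0.0276; 0.0599 without DOX 1 and 0.11 without DOX 2). Zfp36, whose protein destroys AU-rich mRNAs, had 31.3, 28.3 and 49.4 CPM with CFZ-DOX, against 13.5, 11.2 and 15.7 CPM with DOX (log2 fold change 1.43, SE 0.25; edgeR adjusted p = 0.0177; 0.0737 without DOX 2). The AP-1 genes Fos and Jun were called only with the block (log2 fold change 1.16 and 0.77, adjusted p = 1.14e-09 and 3.52e-08), and the CFZ-DOX library numbered 3 was the highest of all 6 for Egr1, Zfp36, Fos and Jun. The nuclear receptor Nr4a1 fell, with 12.6, 10.2 and 13.7 CPM with CFZ-DOX and 24.5, 26.3 and 34.6 CPM with DOX (log2 fold change −1.23, SE 0.22; edgeR adjusted p = 0.018; 0.0655 without CFZ-DOX 2 and 0.0621 without DOX 2).

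Map3k14, which encodes NIK, the kinase of the alternative NF-κB pathway, had 24.3, 25.6 and 52.1 CPM with CFZ-DOX, against 4.51, 5.68 and 7.85 CPM with DOX, 5.65-fold higher (log2 fold change 2.50, SE 0.34; edgeR adjusted p = 0.00807; 0.0512 without DOX 2). The chemokine gene Cxcl1 had 9.75, 5.59 and 35.1 CPM with CFZ-DOX, against 3.06, 1.87 and 1.34 CPM with DOX. Its groups did not overlap (log2 fold change 3.01, SE 0.63; edgeR adjusted p = 0.0261), but it was not called with the block (adjusted p = 0.17), nor without DOX 1, DOX 2 or DOX 3 (adjusted p = 0.07, 0.114 and 0.179). It was the only one of 23 NF-κB and inflammatory genes called, against 2.9% of all genes called higher. With the block 11 of the list were higher and 1 lower, against 23.9% and 25.8% (2 and 10 with ribosomal protein genes also held level). The median was 0.53. Of 13 interferon-stimulated genes 2 were called, both lower, against 4.13% of all genes. Usp18 had 0.196, 0.0771 and 0.251 CPM with CFZ-DOX, against 0.709, 0.432 and 1.81 CPM with DOX (edgeR adjusted p = 0.0445). CFZ-DOX 2 lay under its floor of 0.103 CPM, so no fold is given. Ifit2 had 5.83, 6.25 and 4.33 CPM with CFZ-DOX, against 10.5, 9.97 and 10 CPM with DOX (log2 fold change −0.89, SE 0.23; edgeR adjusted p = 0.045). Both calls were lost without CFZ-DOX 1, CFZ-DOX 2 or any DOX library, and that of Ifit2 also without CFZ-DOX 3 (adjusted p = 0.0535 to 0.138).

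Cytosolic ribosomal protein genes had nearly the same ratio, and few were called. Of 80 tested 2 were called higher and 0 lower, a share near the 2.9% higher among all genes. With the replicate block 80 were higher, against 23.9% of all genes. The CFZ-DOX libraries lay wholly above the DOX libraries for 77, against 15.7% of all genes, and the median log2 fold change was 0.74. Rplp0, a stalk protein of the large subunit, had 7140, 6110 and 5180 CPM with CFZ-DOX, against 4010, 3270 and 2700 CPM with DOX (log2 fold change 0.88, SE 0.28; edgeR adjusted p = 0.0798; 3.52e-12 with the block). When these genes were held level by construction, 0 of them was called in either direction and 1 was higher and 2 were lower with the block, so their direction is relative to the rest of the transcriptome. Nuclear genes of the respiratory chain had 0 calls among 77, and 55 higher and 8 lower with the block, against 23.9% and 25.8% of all genes (median 0.41). They were 0 and 50 when ribosomal protein genes were also held level. Of the 13 mitochondrially encoded genes 0 were called and 8 were higher with the block, against 23.9% of all genes (median 0.29). In this list 0 were higher and 10 lower when ribosomal protein genes were also held level. Of 77 mitochondrial ribosomal protein genes 21 were higher and 22 lower with the block, against 23.9% and 25.8% of all genes (median 0.01). Only 2 were called, both lower, against 4.13% of all genes. They were Mrpl22 and Mrpl41 (edgeR log2 fold change −1.5 and −0.86, adjusted p = 0.0133 and 0.0437). Without DOX 2 the adjusted p was 0.0573 for Mrpl22, and Mrpl41 lost its call without CFZ-DOX 1, CFZ-DOX 2, DOX 1 or DOX 2 (0.0751 to 0.153).

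The host RNAs of small nucleolar RNAs and the nuclear long noncoding RNAs were the list with the largest share of calls among those with at least 10 members tested. Of 16 tested 10 were called higher and 0 lower, against 2.9% and 4.13% of all genes. Without the block but with ribosomal protein genes held level, 2 were higher and 1 lower, against 83 and 6140 of all 15910 genes. With the block 14 were higher and 1 lower, against 23.9% and 25.8% (7 and 3 with ribosomal protein genes also held level). The median was 0.95. Malat1, a nuclear RNA of splicing speckles, had 2310, 1790 and 1010 CPM with CFZ-DOX, against 643, 525 and 260 CPM with DOX (log2 fold change 1.84, SE 0.40; edgeR adjusted p = 0.0293; 0.0615 to 0.0929 without CFZ-DOX 1, CFZ-DOX 2 or DOX 2). Neat1, the scaffold of paraspeckles, had 215, 481 and 175 CPM with CFZ-DOX, against 67.2, 140 and 48.9 CPM with DOX (log2 fold change 1.77, SE 0.46; edgeR adjusted p = 0.047), and its call was lost when any library but CFZ-DOX 3 was left out (adjusted p = 0.0523 to 0.147) and kept with the block. Zfas1, a snoRNA host, had 23.5, 16.5 and 22.2 CPM with CFZ-DOX, against 8.23, 5.71 and 6.16 CPM with DOX (log2 fold change 1.63, SE 0.24; edgeR adjusted p = 0.01; 0.054 without DOX 2).

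**Figure D2:**
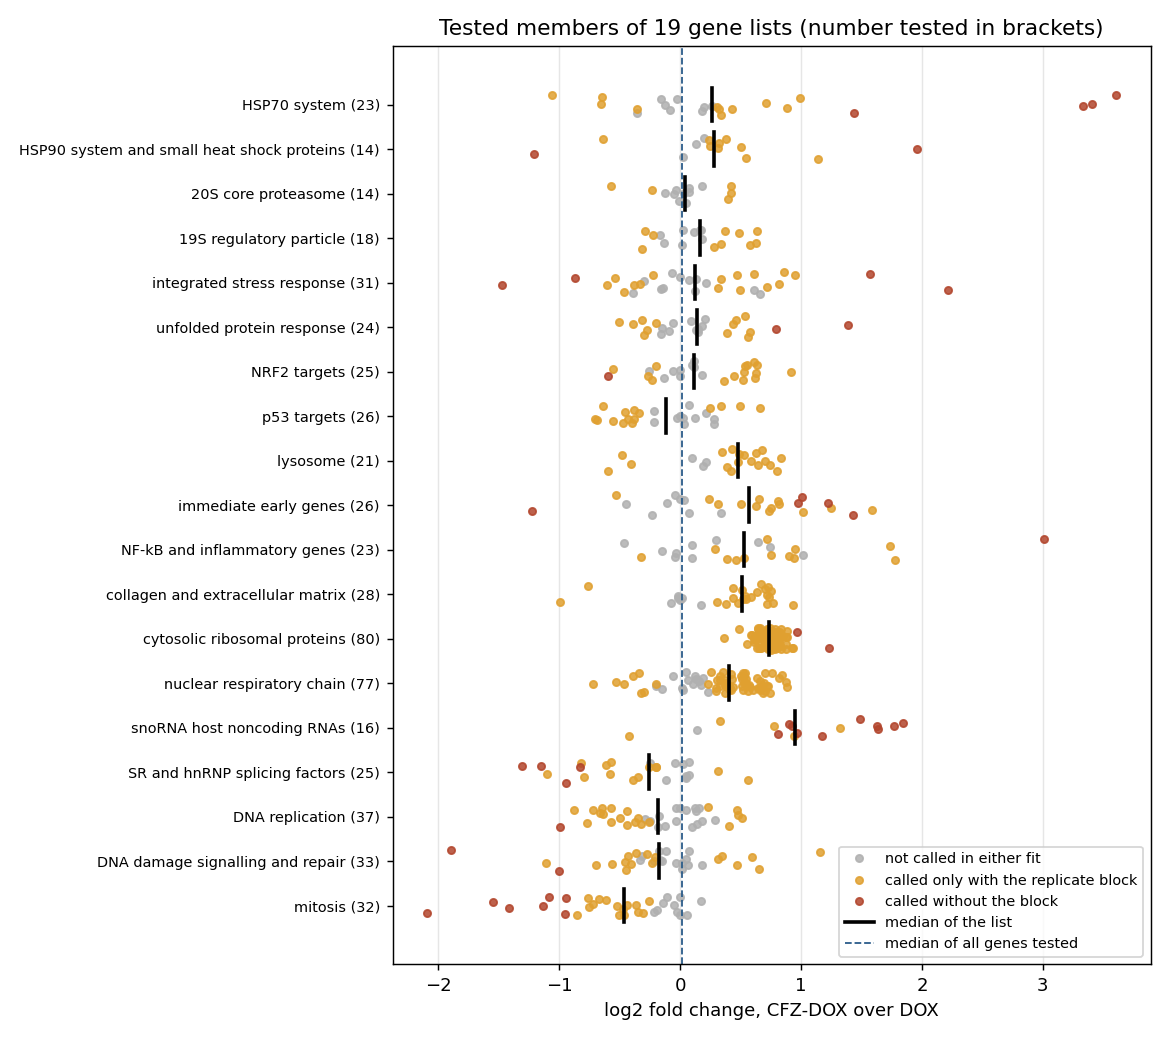
Log2 fold change of CFZ-DOX over DOX for each tested member of 19 gene lists, with a black bar at the median of the list and a dashed line at the median of all genes (0.01). Red points passed without the replicate block and orange ones only with it, and grey ones in neither fit. The ribosomal protein genes cluster around 0.74 and the mitosis list has a median of −0.47.

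Splicing factor genes were lower where they were called. Of 25 SR and hnRNP splicing factors 0 were called higher and 4 lower, against 2.9% and 4.13% of all genes. With the block 2 were higher and 15 lower, against 23.9% and 25.8% (0 and 24 with ribosomal protein genes also held level). The median was −0.26. Hnrnpk, which binds C-rich RNA, had 275, 305 and 191 CPM with CFZ-DOX, against 729, 668 and 507 CPM with DOX (log2 fold change −1.31, SE 0.26; edgeR adjusted p = 0.0228; 0.0601 to 0.0856 without CFZ-DOX 2, DOX 1 or DOX 2). Among the transcriptional cyclins and kinases 3 of 26 were called higher and 2 lower, against 2.9% and 4.13% of all genes. Hexim1, the inhibitor of the elongation factor P-TEFb, had 271, 229 and 320 CPM with CFZ-DOX, against 132, 119 and 165 CPM with DOX (log2 fold change 0.98, SE 0.22; edgeR adjusted p = 0.0321; 0.0676 to 0.143 without CFZ-DOX 1, CFZ-DOX 2, DOX 1 or DOX 2). Ccnt1, the cyclin of P-TEFb, and Cdk12 were higher (log2 fold change 0.71 and 0.99, adjusted p = 0.0493 and 0.0394), though Ccnt1 had a log2 fold change of −0.05 when ribosomal protein genes were held level. The call of Cdk12 was lost without CFZ-DOX 1, CFZ-DOX 2, DOX 1 or DOX 2 (adjusted p = 0.0527 to 0.134) and that of Ccnt1 when any 1 library was left out (0.0562 to 0.161).

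The largest falls by ratio that met the rule for naming were of genes of varied function. Calm2, 1 of the genes of the calcium sensor calmodulin, had 96.3, 78.8 and 119 CPM with CFZ-DOX, against 499, 465 and 344 CPM with DOX (log2 fold change −2.16, SE 0.25; edgeR adjusted p = 0.00597). Apln, the peptide hormone apelin, had 2.42, 1.47 and 2.16 CPM with CFZ-DOX, against 10.9, 8.96 and 7.06 CPM with DOX (log2 fold change −2.15, SE 0.29; edgeR adjusted p = 0.00803). Rab1a, the small GTPase of transport from the endoplasmic reticulum to the Golgi, had 45.4, 57.6 and 50.8 CPM with CFZ-DOX, against 211, 243 and 154 CPM with DOX (log2 fold change −1.98, SE 0.22; edgeR adjusted p = 0.00529). These genes were lower in every CFZ-DOX library than in any DOX library, as were all genes called lower, and leaving out any 1 library kept their calls. Without both libraries numbered 2 these calls were lost (edgeR adjusted p = 0.15 for Calm2, 0.15 for Apln and 0.125 for Rab1a). Nynrin, the anticoagulant receptor gene Thbd, the innate receptor gene Tlr2, the cadherin gene Cdh11 and the mitochondrial aspartate-glutamate carrier gene Slc25a12 completed this group, with log2 fold changes of −2.15 to −1.85 and adjusted p of 0.00646 to 0.0487. Of these, Thbd lost its call without CFZ-DOX 2 or DOX 2 (adjusted p = 0.0618 and 0.052), and Tlr2 without CFZ-DOX 1, CFZ-DOX 2, DOX 2 or DOX 3 (0.0737 to 0.126).

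By absolute loss the first gene was Actg1, the gamma cytoplasmic actin, with 1060, 1160 and 494 CPM with CFZ-DOX and 3240, 2900 and 1780 CPM with DOX (log2 fold change −1.54, SE 0.37; edgeR adjusted p = 0.0384). Among 24 actin, contractile and YAP target genes 12 were higher and 5 lower with the block, against 23.9% and 25.8% of all genes. They were 1 and 22 with ribosomal protein genes also held level, and their median was 0.21. Actg1 was the only one of them called without the block, against 4.13% of all genes called lower. Its sister Actb had 1350, 1720 and 802 CPM with CFZ-DOX, against 2910, 3280 and 2040 CPM with DOX, and was called only with the block (log2 fold change −1.13, adjusted p = 2.69e-13; 0.072 without it). H3f3b, which encodes histone H3.3, Cnbp, which encodes a nucleic acid binding protein, and Arf1, a Golgi GTPase, were also lower (edgeR log2 fold change −1.20, −1.76 and −1.06, adjusted p = 0.0218, 0.00803 and 0.0389). The calls of Actg1, H3f3b and Arf1 were each lost without CFZ-DOX 1, CFZ-DOX 2, DOX 1 or DOX 2 (adjusted p = 0.0587 to 0.146), that of Cnbp without DOX 2 (0.0512), and all were kept with the block. The metallothionein gene Mt1 had 46.5, 54.7 and 28.2 CPM with CFZ-DOX, against 133, 108 and 80.2 CPM with DOX (log2 fold change −1.31, SE 0.27; edgeR adjusted p = 0.026; 0.0556 to 0.0789 without CFZ-DOX 2, DOX 1 or DOX 2), and its neighbour Mt2 missed the threshold (log2 fold change −1.27, adjusted p = 0.0506; 3.22e-07 with the block).

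Matrix and lysosomal genes had no call without the block and many with it. Of 28 collagen and matrix genes 20 were higher and 2 lower with the block (median 0.52), and of 21 lysosomal genes 15 were higher and 3 lower (median 0.48), against 23.9% and 25.8% of all genes. The direction turned with ribosomal protein genes also held level, with 1 higher and 18 lower for the matrix list and 0 and 13 for the lysosomal one. Fn1, fibronectin, had 30300, 16400 and 10500 CPM with CFZ-DOX, against 17100, 8070 and 4830 CPM with DOX (log2 fold change 0.93, adjusted p = 0.263; 1.9e-13 with the block). The replicate numbers differed more than the treatments here, while each CFZ-DOX library was above the DOX library of its own number. The lysosomal precursor Psap behaved likewise, with 4340, 2830 and 2140 CPM with CFZ-DOX and 2410, 1550 and 1270 CPM with DOX (log2 fold change 0.83, adjusted p = 0.153; 4.89e-11 with the block). The fibroblast transcription factor Prrx1 was lower (log2 fold change −0.94, SE 0.19; edgeR adjusted p = 0.0234; 0.0713 to 0.102 without CFZ-DOX 2, DOX 1 or DOX 2), while 7 of the 10 fibroblast markers were higher and 3 lower with the block (1 and 7 with ribosomal protein genes also held level).

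In metabolism, 2 of 19 glycolytic genes were called higher and 1 lower, against 2.9% and 4.13% of all genes. With the block they were 12 and 5, against 23.9% and 25.8% (1 and 13 with ribosomal protein genes also held level). Slc2a1, the glucose transporter GLUT1, had 39.2, 43.2 and 50.7 CPM with CFZ-DOX, against 105, 144 and 96.6 CPM with DOX (log2 fold change −1.38, SE 0.21; edgeR adjusted p = 0.0117; 0.0534 without CFZ-DOX 2 and 0.0539 without DOX 2). Gapdh was higher only with the block (log2 fold change 0.71, adjusted p = 6.52e-10) and at −0.05 when ribosomal protein genes were held level. Of 10 genes of doxorubicin efflux and reduction none was called, and the efflux pump genes Abcb1b and Abcb1a had log2 fold changes of −0.17 and −0.92 (adjusted p = 0.668 and 0.206; 0.0694 and 0.000806 with the block).

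Carfilzomib alone, in the libraries without doxorubicin, is set beside these values in 1 fit of all 12 libraries, where the interaction tests whether the effect of carfilzomib with doxorubicin (CFZ-DOX over DOX) differs from that without it (CFZ over DMSO). Of 16648 genes tested 1408 had a positive interaction (8.46%) and 1862 a negative one (11.2%). All 32 proteasome subunits were higher with CFZ than with DMSO in the 6 libraries without doxorubicin, against 28.3% of all genes there, and 30 of the 32 had a negative interaction and 0 a positive one. For Psmb2, a core subunit, the CPM in this fit were 121 ± 23.5 with CFZ-DOX and 131 ± 24.9 with DOX, and 277 ± 2.85 with CFZ and 96.6 ± 3.22 with DMSO (SD, n = 3; edgeR interaction log2 −1.63, SE 0.23, adjusted p = 0.000425).

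Of the 25 NRF2 targets 17 had a negative and 0 a positive interaction, against 11.2% and 8.46% of all genes. Of the 26 p53 targets these were also 17 and 0. Hmox1 stood at 41.3 ± 16.8 CPM with CFZ-DOX and 26.3 ± 9.5 with DOX, and at 1430 ± 73.2 with CFZ and 37.1 ± 3.04 with DMSO (SD, n = 3), so carfilzomib raised it 38.4-fold without doxorubicin and by 1.57-fold, not called, with it (edgeR interaction log2 −4.61, SE 0.39, adjusted p = 1.17e-05). Slc7a11 had 19.7 ± 2.55 CPM with CFZ-DOX and 19.5 ± 1.9 with DOX, and 480 ± 33.5 with CFZ and 47.7 ± 7.61 with DMSO (edgeR interaction log2 −3.31, SE 0.22, adjusted p = 2.07e-06). Fas had 9.61 ± 4.17 CPM with CFZ-DOX and 13.2 ± 4.74 with DOX, and 41 ± 11.3 with CFZ and 3.4 ± 0.921 with DMSO (edgeR interaction log2 −4.05, SE 0.47, adjusted p = 0.000112). The levels with CFZ-DOX stayed below those with CFZ in all of these genes.

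Ubb and the HSP70 genes divided. Ubb and Hspa8 had positive interactions (edgeR log2 0.96 and 1.03, SE 0.24 and 0.29, adjusted p = 0.0135 and 0.0211), that is, larger ratios with doxorubicin. Hspa8 had 2830 ± 371 CPM with CFZ-DOX and 278 ± 76.2 with DOX, and 6310 ± 614 with CFZ and 1270 ± 117 with DMSO (SD, n = 3). Of the fixed genes 4 were positive; the count was 1 without DMSO 2, CFZ 2 or DOX 2, 2 without DMSO 1, CFZ-DOX 1, DMSO 3 or CFZ 3, and 1 with ribosomal protein genes held level. Hspa1b and Hspa1a showed no interaction past the threshold (log2 0.52 and 0.34, SE 0.55 and 0.65, adjusted p = 0.531 and 0.751), nor did Ppp1r15a and Ddit3 (log2 −0.64 and −0.36, SE 0.34 and 0.37, adjusted p = 0.197 and 0.524). A p that misses the threshold does not show equal effects. Dnajb1, Bag3 and Cryab had negative ones (log2 −2.09, −2.07 and −2.80, SE 0.38, 0.23 and 0.32, adjusted p = 0.00193, 8.51e-05 and 0.000108). Over the HSP70 system 14 of 23 genes had a negative interaction and 1 a positive one, against 11.2% and 8.46% of all genes.

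Topoisomerase and mitotic genes divided too. Top2a fell more with doxorubicin (edgeR log2 −1.89 with it and −0.78 without, interaction −1.11, SE 0.24, adjusted p = 0.00613), and Top2b was lower with it and not called without it (log2 −0.99 with and −0.16 without, interaction −0.83, SE 0.16, adjusted p = 0.00317). Of the 32 mitotic genes 30 fell with CFZ alone, against 28.9% of all genes there. A positive interaction was found for 12 and a negative one for 2, against 8.46% and 11.2% of all genes. Plk1 was among the 12 (log2 −1.06 with doxorubicin and −2.08 without, interaction 1.01, SE 0.33, edgeR adjusted p = 0.044). Between the calls of the 2 comparisons, which share no library, 113 genes were higher in both among 13266 tested in both, 42.6% of the 265 higher with doxorubicin and 3.01% of the 3755 higher without, which were 28.3% of the genes tested in both. Lower in both were 336, 53% of the 634 and 8.62% of the 3897, which were 29.4% of the genes tested in both. Of the 265 genes higher with doxorubicin 23 were lower without it (8.68%), and of the 634 lower with it 114 were higher without it (18%). The replicate block gave closer shares. Of the 3020 genes then higher with doxorubicin 39.8% were higher without doxorubicin and 24.7% lower. Of the 3962 lower with doxorubicin 48.5% were lower without doxorubicin and 29% higher. Genes higher and lower without doxorubicin were then 33.8% and 35.6% of those tested in both.

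**Figure D3:**
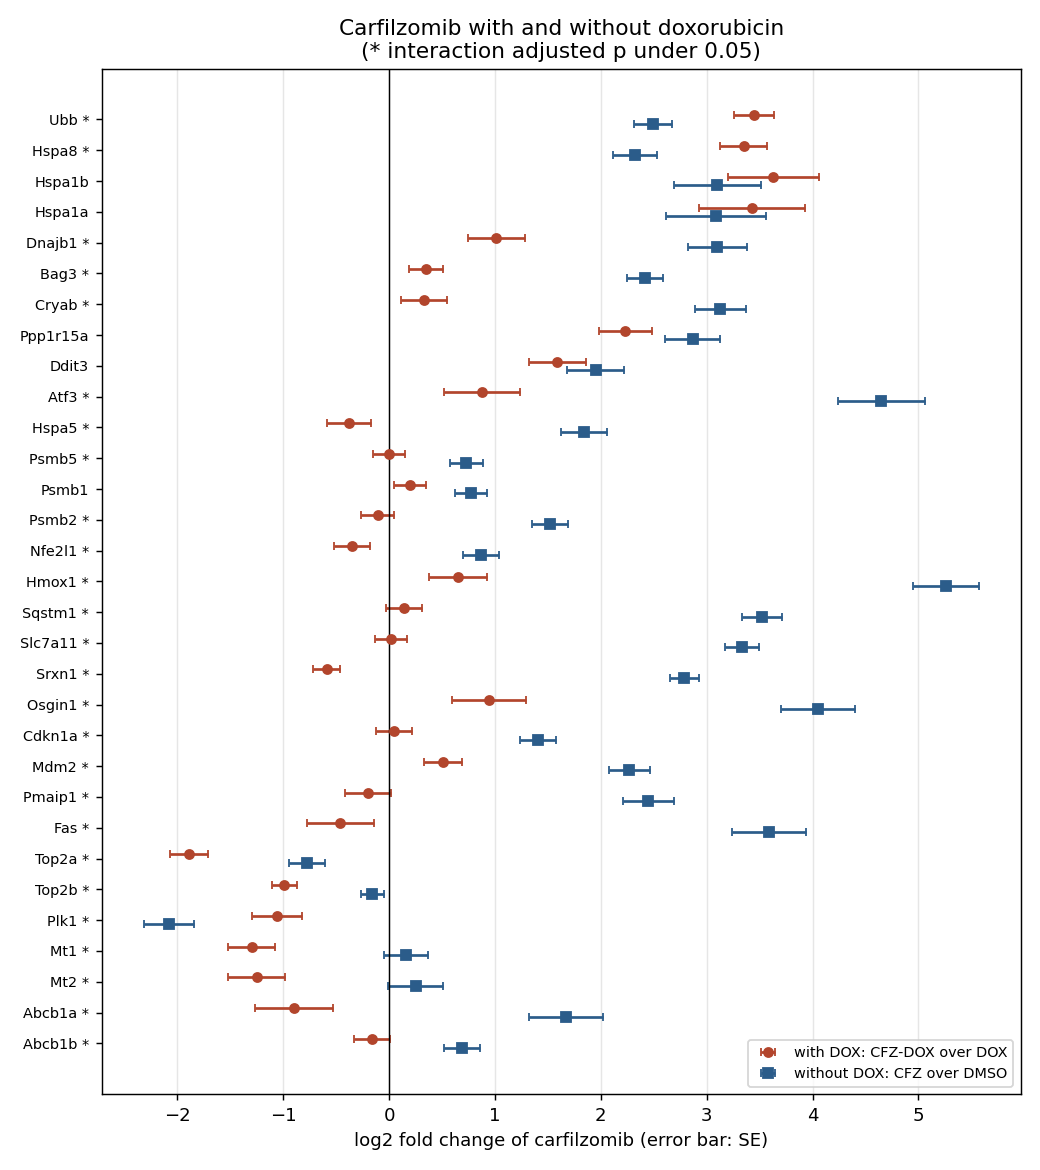
Log2 fold change of carfilzomib with doxorubicin (CFZ-DOX over DOX, red circles) and without it (CFZ over DMSO, blue squares) for 31 genes in 1 fit of 12 libraries, with bars of 1 SE and a star where the interaction has an adjusted p under 0.05. Red and blue lie together for Hspa1b and Hspa1a and carry no star there or for Ppp1r15a and Ddit3, red lies right of blue for Ubb and Hspa8, and for Hmox1, Slc7a11 and Fas blue lies at 5.26, 3.33 and 3.59 and red at 0.65, 0.02 and −0.46.

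The change differed with the size of the gene. The median log2 fold change was 0.42 for the 1668 genes with under 1000 exonic bases and fell through 0.19, 0.04 and −0.09 to −0.17 for the 2295 genes with 8000 or more. By genomic span it was 0.38 for the 2022 genes under 2000 bases and −0.26 for the 865 of at least 150000 bases, of which 0.231% were called higher and 5.32% lower. The order of the bins was the same in each of the 3 replicate numbers. Processed pseudogenes had a median of 0.47 (953 genes) and protein-coding genes of −0.03 (12688 genes), and pseudogenes took 1.48 ± 0.101% of counts with CFZ-DOX and 1.03 ± 0.0361% with DOX (SD, n = 3). Genes are not replicates, so no test is given.

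**Figure D4:**
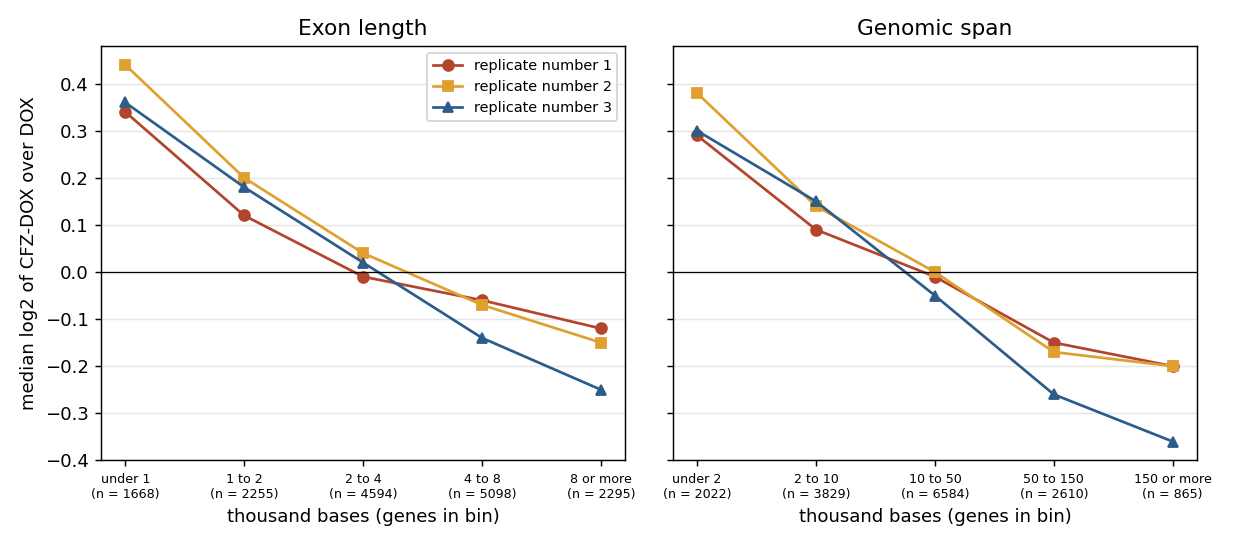
Median log2 ratio of CFZ-DOX over DOX by exon length (left) and genomic span (right) of the genes, in kb, for each replicate number. All 3 lines fall from left to right, from 0.34 to 0.44 for the shortest exon length to −0.25 to −0.12 for the longest.

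Many of the pseudogenes that were called are close copies of coding genes, so copy and parent may share reads. Such sharing was not tested. Of 54 pseudogenes called higher 47 matched a coding transcript with at least 90% identity over at least 50% of their length. The closest coding gene was called higher in 11 of the 47 without the block and in 45 with it. In 2 of the 47 the closest gene was lower with the block. Of 22 called lower 21 matched in this way, and the closest gene was lower in 14 without the block and 20 with it. For Hspa8 6 copies were called, with 94.1 to 99.7% identity and log2 fold changes of 2.84 to 3.49. They summed to 1395, 1298 and 1159 CPM with CFZ-DOX, against 162, 118 and 96.8 CPM with DOX, most of it on Gm15459, a copy named here after its values were seen, with 1350, 1260 and 1130 CPM with CFZ-DOX, against 156, 115 and 94.1 CPM with DOX.

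Among the largest rises were also 2 genes on chromosome 9 that are known to collect reads of ribosomal RNA. Lars2, the mitochondrial leucyl-tRNA synthetase, had 1280, 1670 and 989 CPM with CFZ-DOX, against 192, 187 and 99.8 CPM with DOX, 8.22-fold higher (log2 fold change 3.04, SE 0.34; edgeR adjusted p = 0.00505). Mir6236, annotated as a microRNA of 123 bases, had 20.9, 20.2 and 13.3 CPM with CFZ-DOX, against 2.71, 2.77 and 0.941 CPM with DOX (log2 fold change 3.09, SE 0.40; edgeR adjusted p = 0.00801). The groups of both were far apart and the ratio was alike in both. The part of ribosomal RNA in these 2 values was not tested.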

How the data were processed

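Per the submitters' processing notes, reads were trimmed with Trimmomatic 0.39, aligned with STAR 2.7.9a to GRCm39 (mm39) and counted per gene with featureCounts of Subread 2.0.2; the annotation release, strand setting and handling of read pairs are not given in the sources used here. The deposited table holds raw counts for 56980 gene IDs, of which 52073 (91.4%) matched a symbol. IDs without a symbol stayed in the tests, with 0.428 to 0.724% of counts in the 6 libraries. Intervals and floors cover counting error only.

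Genes were filtered with filterByExpr (minimum count 10, minimum total 15), scaled by TMM and tested with edgeR 4.0.16 (R 4.3.3; quasi-likelihood F test, robust, prior count 0.125, Benjamini-Hochberg adjusted p under 0.05), CFZ-DOX over DOX, on 6 libraries. SE is the log2 fold change divided by the root of F. The interaction was fitted on 12 libraries. The block used the replicate numbers of the labels, which do not say what same-numbered libraries share. Same-numbered libraries deviated together from their group means (r = 0.62, 0.39 and 0.69 for numbers 1, 2 and 3). The r of other pairs was −0.62 to 0.11. Deviations from a group mean cancel out within the group, which pushes the r of other pairs below that of same-numbered ones where these are alike. Alternatives were other scalings, filters, DESeq2 1.42.0, limma-voom (limma 3.58.1), stricter thresholds, the replicate block and leaving out libraries. The script was tested on simulated data.

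Named genes were a fixed set, the 10 called genes with the largest rise and fall at a mean of at least 5 CPM, the 6 with the largest gain and loss in CPM, and from each list up to 4 called members with the commoner direction and up to 2 with the opposite one, or the 2 most abundant members of a list with no call. Some genes that meet this rule are not reported here. The members, lists and rule were chosen with earlier results of these data known.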

Additional observations from a re-analysis of the deposited data

Results flagged for a closer look

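For 29 genes of the fixed set the effect of carfilzomib with doxorubicin (CFZ-DOX over DOX) differed from that without it (CFZ over DMSO). The criterion was the interaction of the fit of 12 libraries (edgeR adjusted p under 0.05). Only fixed genes were considered here. Among all 16648 genes tested 1408 had a positive interaction (8.46%) and 1862 a negative one (11.2%). Values are interaction log2 fold changes, negative where the ratio was smaller or more negative with doxorubicin. Among the NRF2 targets and their regulators they were −4.61 for Hmox1, −3.37 for Sqstm1, −3.31 for Slc7a11, −3.38 for Srxn1, −3.11 for Osgin1, −1.42 for Nfe2l2 and −1.11 for Keap1. Among the proteasome genes and their regulator they were −0.73 for Psmb5, −1.63 for Psmb2 and −1.22 for Nfe2l1. Among p53 and its targets they were −0.67 for Trp53, −1.36 for Cdkn1a, −1.76 for Mdm2, −2.64 for Pmaip1 and −4.05 for Fas. Chaperone and stress genes had −2.09 for Dnajb1, −2.80 for Cryab, −2.07 for Bag3, −2.22 for Hspa5 and −3.77 for Atf3. The efflux pump genes had −2.57 for Abcb1a and −0.85 for Abcb1b, the metallothionein genes −1.46 for Mt1 and −1.5 for Mt2, and the topoisomerase II genes −1.11 for Top2a and −0.83 for Top2b. Positive values were found for Hspa8 at 1.03, Ubb at 0.96 and Plk1 at 1.01.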

How the results depend on the processing

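Counts are given as genes higher and lower with CFZ-DOX, with those changed at least 2-fold in parentheses, beside 461 and 657 (365 and 390) reported. They were 218 higher with library size scaling (85 at least 2-fold), 793 and 421 with the upper quartile (591 and 241), 83 and 6140 with ribosomal protein genes held level (78 and 4146), 797 and 1317 without a filter (640 and 742), 888 and 1183 with DESeq2, 23 and 34 at an adjusted p under 0.01 (23 and 34), 33 and 25 against a 1.5-fold change (33 and 25) and 1722 and 2005 in the fit of 12 libraries (630 at least 2-fold higher). The filter of 1 CPM in 3 libraries left 237 at least 2-fold higher. Library size scaling kept only 93 of the 461 higher and 424 of the 657 lower genes. Leaving out a library, or both libraries of a number, gave 5 to 1528 higher and 0 to 2059 lower (5 to 474 and 0 to 585 at least 2-fold); the 0 came from edgeR without number 2.

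With the replicate block the counts were 3805 and 4109 (784 and 698), and of the named calls only that of Cxcl1 was lost. The following were added after seeing the data, apart from the block with ribosomal protein genes held level, which gave 11453 lower (137 and 5262). The block without number 1 gave 2732 and 3476 (857 and 853), without number 2 3054 and 3326 (803 and 685) and without number 3 3515 and 3708 (717 and 628). The block with library size gave 2213 and 6186 (1302 at least 2-fold lower) and with the upper quartile 5151 and 3092 (1119 at least 2-fold higher). Of the fixed genes 4 had a positive interaction, 7 with the upper quartile, with DESeq2 or with the block, 1 with ribosomal protein genes held level, and 1 to 5 without 1 library.

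Of 137 named genes 34 changed sign somewhere, 1 of them called (Ccnt1). With ribosomal protein genes held level, without and with the block, the log2 fold changes were −0.57 for Psmb1, −0.52 for Hsf1, −0.15 (block −0.14) for Hmox1, −0.61 (block −0.62) for Sqstm1, −0.43 (block −0.45) for Cryab, −0.39 (block −0.44) for Bag3, −0.27 (block −0.28) for Atf4, −0.70 (block −0.75) for Cdkn1a, −0.27 (block −0.28) for Mdm2, −0.05 for Gapdh, −0.31 (block −0.32) for Psmb6, −0.60 (block −0.61) for Psmd2, −0.37 (block −0.38) for Psmc3, −0.37 for Pomp, −0.05 (block −0.06) for B2m, −0.27 (block −0.28) for Cd63, −0.25 (block −0.27) for Col1a2, −0.16 for Atp5b, −0.29 (block −0.30) for mt-Co1, −0.49 (block −0.52) for mt-Nd1, −0.05 for Ccnt1, −0.38 for Akr1a1, −0.15 for Akr1b3, −0.73 (block −0.74) for Pecam1 and −0.62 (block −0.65) for Cdh5. With library size they were −0.03 for Psmb1, −0.07 for Sqstm1, −0.13 for Cdkn1a, −0.05 for Psmd2, −0.16 for Pecam1 and −0.07 for Cdh5, with the upper quartile 0.12 for Psmb5, 0.01 for Psmb2, 0.13 for Slc7a11, 0.11 for Trp53, 0.11 for Mcl1, 0.03 for Psme3 and 0.10 for Ccng1, with the filter of 1 CPM 0.03 for Psmb5, 0.04 for Slc7a11, 0.01 for Trp53, 0.01 for Mcl1 and 0.01 for Ccng1, without a filter −0.02 for Cdkn1a and −0.03 for Pecam1, with limma-voom 0.00 for Cdkn1a and 0.03 for Mcl1, with the replicate block 0.03 for Mcl1 and in the fit of 12 libraries 0.00 for Psmb5 and 0.02 for Slc7a11. Leaving out a library or a number gave −0.08 to 0.02 for Ccng1, −0.29 to 0.38 for Cdh5, −0.19 to 0.17 for Cdkn1a, −0.98 to 0.40 for Hist1h2bc, −0.26 to 0.40 for Mcl1, −0.24 to 0.22 for Pecam1, −0.48 to 0.02 for Pmaip1, −0.27 to 0.03 for Psmb2, −0.16 to 0.10 for Psmb5, −0.24 to 0.03 for Psme3, −0.17 to 0.10 for Slc7a11, −0.03 to 0.25 for Sqstm1 and −0.12 to 0.06 for Trp53. The causes were not tested.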
